A study of Homo sapiens with 8 samples.

Results

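Expressed LINC long non-coding RNAs of 2 Ewing sarcoma cell lines were described: genes named LINC and a number, chosen by a mean of at least 1 FPKM over all 8 libraries. FPKM counts fragments per kilobase of transcript in a library of fixed size, so levels can be set side by side between genes. The choice left 143 of the 1872 LINC genes in the table, which lists 60332 genes. A further 1020 LINC genes were listed at 0 in every library. RD-ES and SK-N-MC are established lines, each sequenced as 2 control and 2 eKD2 libraries. Control cells were infected, per the labels, with an empty lenti-dCas9-KRAB virus (the study calls them parental), while in eKD2 the same fusion of an uncutting Cas9 and a repressor domain was guided to the flank of a GGAA repeat, in the enhancer of LOXHD1. All cells were infected at a multiplicity of 10, selected with 1 µg/ml puromycin for 3 days and kept for at most 5 passages. The eKD2 cells were infected pools, not single clones. Replicates are called biological duplicates, and p-values measure the spread between these libraries.

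LINC is a name given by position, not by function: it marks a transcript that lies mostly between coding genes and has no assigned role. Such RNAs are spliced and often polyadenylated, tend to be less abundant and more restricted to a cell type than messenger RNAs, and include regulators in the nucleus, hosts of small or circular RNAs, and genes later found to encode a small protein. In Ewing sarcoma the EWSR1::FLI1 fusion protein binds runs of GGAA and can turn them into enhancers, and that is why the sequences near the starts of these genes are shown.

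The targeted gene was checked first. LOXHD1, which encodes a protein of hair cell stereocilia, stood at 21.4 and 21.2 FPKM in the RD-ES control libraries and at 1.04 and 1.02 in eKD2. In SK-N-MC it stood at 159 and 169 FPKM in control and at 11.0 and 12.0 in eKD2. It fell by 3.46 (SE 0.0782, limma adjusted p = 0.00011) and by 3.73 (SE 0.0782, adjusted p = 3.7e-05) on the log2 scale, and with RD-ES fitted alone the adjusted p there was 0.059. Depth, estimated from the steps of low values, was between 7.46 and 29.9 M reads (M, mega) a library, lowest in RD-ES eKD2 replicate 1. Of 10 Ewing sarcoma markers all were detected, with NR0B1 at 2.38 to 3.84 FPKM in RD-ES and at 51.0 to 59.6 in SK-N-MC. MYOG, a muscle factor, and CD3E, of T cells, were at 0 in every library, while PTPRC, a leukocyte marker, was at 19.2 to 22.6 FPKM in SK-N-MC and at 0 to 0.0173 in RD-ES. The part of that marker in the line differences was not tested.

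Sequences at the starts of 4 members are given because the text turns on their levels: LINC00839 and LINC01018 were on in RD-ES only and LINC02485 in SK-N-MC only. LINC00632 is shown because its eKD2 libraries lay above both controls in each line, without passing the test in either. They are RefSeq promoter windows of 300 bases on GRCh38.p14, read 5′ to 3′ on the strand of the gene, with each GGAA or TTCC in capitals.
LINC00839, chr10:42475241-42475540, plus strand: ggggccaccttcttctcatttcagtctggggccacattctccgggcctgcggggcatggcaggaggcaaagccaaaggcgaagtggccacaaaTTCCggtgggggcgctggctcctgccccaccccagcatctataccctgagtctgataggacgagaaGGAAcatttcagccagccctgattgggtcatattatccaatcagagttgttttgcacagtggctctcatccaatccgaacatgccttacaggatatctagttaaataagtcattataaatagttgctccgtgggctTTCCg
LINC01018, chr5:6581886-6582185, plus strand: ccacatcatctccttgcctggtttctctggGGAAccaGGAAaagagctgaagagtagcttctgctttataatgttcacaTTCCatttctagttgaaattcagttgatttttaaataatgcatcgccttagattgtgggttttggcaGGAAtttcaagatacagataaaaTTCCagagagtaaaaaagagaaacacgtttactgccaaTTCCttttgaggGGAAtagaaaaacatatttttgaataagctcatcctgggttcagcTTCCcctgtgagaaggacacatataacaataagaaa
LINC02485, chr4:135123510-135123809, minus strand: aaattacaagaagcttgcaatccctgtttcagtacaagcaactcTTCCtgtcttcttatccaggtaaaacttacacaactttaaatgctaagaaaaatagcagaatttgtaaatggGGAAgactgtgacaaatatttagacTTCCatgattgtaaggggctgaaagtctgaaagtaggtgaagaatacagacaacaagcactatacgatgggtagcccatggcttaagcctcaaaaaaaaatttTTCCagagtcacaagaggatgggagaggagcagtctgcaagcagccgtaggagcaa
LINC00632, chrX:140709509-140709808, plus strand: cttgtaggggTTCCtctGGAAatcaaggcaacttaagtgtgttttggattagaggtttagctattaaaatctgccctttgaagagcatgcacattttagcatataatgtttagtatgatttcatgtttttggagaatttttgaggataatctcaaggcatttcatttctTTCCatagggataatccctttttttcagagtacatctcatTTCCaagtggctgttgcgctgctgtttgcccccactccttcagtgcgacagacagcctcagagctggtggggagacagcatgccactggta
RefSeq windows were matched for 95 members. All 4 windows hold GGAA on 1 strand or the other, as did 96.8% of the member windows and 95.5% of all 35116. The doubled unit GGAAGGAA, searched on both strands, was in 4 of 95 member windows (4.21%, against 3.67% of all) and in 0 of 7 windows of members on in one line only. TATAAA was in 9.47% of member windows and in 11.5% of all, and CCAAT in 43.2% and 34.6%. A match describes letters only.

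Longer runs lay farther out. Within 10 kb of the annotated start, a run of at least 4 GGAA units on either strand was found for 15 of 140 members (10.7%), against 6.83% of 15009 tested genes. Distances are from starts in the GENCODE annotation, which the gene models behind the FPKM values need not share. The closest were 0.65 kb upstream of LINC02304 with 15 units, 0.9 kb upstream of LINC00877 with 4 and 1.59 kb upstream of LINC01727 with 9. The first and the last, the longer of the 3, are shown from GRCh37 with 40 bases on each side and the run in capitals, which read TTCC on the plus strand.
LINC02304, chr14:97620501-97620640, plus strand: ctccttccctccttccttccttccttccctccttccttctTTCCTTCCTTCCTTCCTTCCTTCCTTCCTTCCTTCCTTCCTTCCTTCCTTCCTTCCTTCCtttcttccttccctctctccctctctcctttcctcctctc
LINC01727, chr20:21536426-21536541, plus strand: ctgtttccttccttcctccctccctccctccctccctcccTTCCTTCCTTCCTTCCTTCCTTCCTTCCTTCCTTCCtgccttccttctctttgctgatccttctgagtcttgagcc
The coding start nearest to the annotated start of LINC01727 is that of NKX2-2 (a transcription factor used as an Ewing sarcoma marker) at 43.35 kb. The locus measured as LINC01727 starts at chr20:21550614, not at the annotated 21538055, and so over 10 kb from the run. LINC01727 stood at 16.5, 16.7, 21.1 and 22.7 FPKM in RD-ES and at 0.0831 to 0.726 in SK-N-MC. LINC02304 stood at 0 to 1.44 FPKM in RD-ES and at 1.94 to 3.79 in SK-N-MC. The 2 lines were therefore ordered in opposite ways at these members. Of members on in one line only, 0 of 10 with an annotated start in RD-ES and 2 of 4 in SK-N-MC had such a run within 10 kb. The latter were LINC02485 at 8.57 kb with 5 units and LINC02197 at 6.55 kb with 4. The split depends on the limit of 10 kb. Among the RD-ES members, runs lay at 10.36 kb from LINC01018 (6 units) and at 13.21 kb from LINC00664 (14 units).

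Levels ran from 1.03 to 87.0 FPKM as a mean over the libraries. The median of the member means was 3.15 FPKM, against 13.8 for all 15175 genes tested (mean of 1 FPKM or more) and 3.69 for 275 antisense genes. A mean of at least 10 FPKM was reached by 27 members, and 44 (30.8%) lay under 2 FPKM. The 8 highest members held 33.8% of the summed mean. At the limit of the choice, LINC01116 (1.07 FPKM), LINC00652 (1.05) and LINC02550 (1.03) lay just inside, and LINC01372 (0.994), LINC02453 (0.95) and LINC00959 (0.947) just outside. In all 8 libraries 121 members were above 0 and 72 were at 1 FPKM or more.

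LINC00339 was the most abundant member, between 75.3 and 112 FPKM, with both lines overlapping. 51.0% of its exonic bases are shared with another gene, so its reads may be split. LINC01578 (now CHASERR, known as a regulator of its neighbour CHD2) stood between 41.1 and 68.7 FPKM. LINC00963 stood at 10.7 to 13.7 FPKM in RD-ES against 52.0 to 62.4 in SK-N-MC, and LINC02210 at 18.2 to 24.3 and 46.9 to 56.0. LINC00969 (now MUC20-OT1) stood at 25.6 to 33.2 and 49.9 to 64.6 FPKM, with 24.7% of its exonic bases in other copies. For these 3 every SK-N-MC library was above every RD-ES library. LINC00680 (18.9 to 45.1 FPKM) and LINC00674 (17.7 to 45.4) are annotated as pseudogenes of 181 and 160 exonic bases that other genes share at 100% and 97.5%. The loci behind their FPKM values are longer than the annotated ones, so the exons measured may differ. Both levels are uncertain. LINC00662, eighth in level, is described with the eKD2 changes.

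Names have moved since the table was made. Of 140 members found in the GENCODE annotation used here, 130 remain long non-coding, 4 are protein coding and 6 are pseudogenes, and 21 carry another name. A coding gene overlaps 29 members, 31 share over 10% of their exonic bases with another gene and 17 have over 10% of them in another copy of the genome, and such reads may be assigned to either. The coding ones are LINC00116 (MTLN, a small protein of mitochondria), LINC00634 (SMIM45), LINC01125 (C2orf92) and LINC00094 (BRD3OS). LINC00116 stood between 15.4 and 19.8 FPKM in all libraries, with all groups overlapping. Only 2 of 7 listed genes for small proteins occur under these names among the genes measured. LINC00116 was a member, and LINC00908, with a mean of 0.3 FPKM, was not. The rest could not be judged by level. Of 4 listed RNA hosts, 3 occur under these names, and LINC00461 (host of miR-9-2) and LINC00632 (host of the circular RNA CDR1as) were members. Libraries of polyadenylated RNA do not measure the circle itself.

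The 2 lines were compared in the control libraries, as a description, since these values also entered the choice of members. The control mean was higher in SK-N-MC for 83 members and in RD-ES for 60, and 94 members reached 1 FPKM in both lines. On in one line only was taken as a control mean of at least 1 FPKM against under 0.1 in the other. That held for 11 members in RD-ES (7.69%, against 2.69% of all genes tested) and for 4 in SK-N-MC (2.8%, against 1.95%). Without RD-ES control replicate 2 the latter count was 8. No share over all genes stands beside that 8, so it is not read as a result about the members. Fewer cells with a transcript and less of it in each cell cannot be told apart in these bulk libraries.

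**Figure D1:**
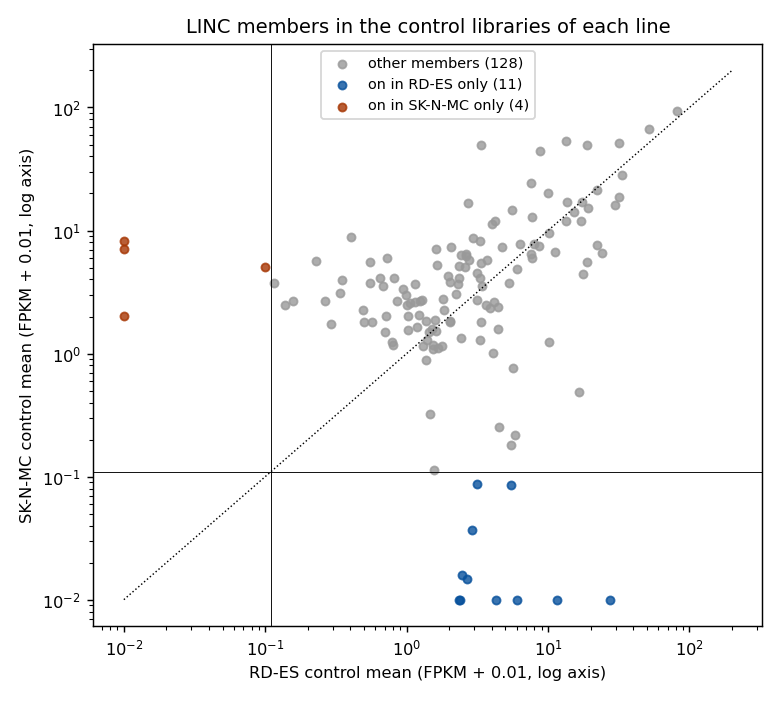
Control mean of each of the 143 members in RD-ES (x axis) and SK-N-MC (y axis), in FPKM + 0.01 on log axes. Thin lines mark the limit of 0.1 FPKM, and the dotted line marks equal levels. The 11 members on in RD-ES only lie below the horizontal line and the 4 on in SK-N-MC only to the left of the vertical one.

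LINC00839 (chr10:42970928-42990785, plus strand, GRCh37) was the highest of them, with RD-ES values of 27.4 and 27.7 FPKM (control) and 27.7 and 26.7 (eKD2) and 0 in all 4 SK-N-MC libraries. Its RD-ES libraries differed little from each other. LINC02253 (chr15:97759042-97975324, plus strand) stood at 12.1, 11.1, 12.7 and 8.95 FPKM in RD-ES and at 0, 0, 0.117 and 0.552 in SK-N-MC. LINC00470 (chr18:1254384-1408345, minus strand) stood at 5.04, 6.95, 5.72 and 2.97 FPKM in RD-ES, with 0 throughout SK-N-MC. LINC01037, with no entry in the annotation used, stood at 4.48 and 6.5 FPKM in control and 10.8 and 11.7 in eKD2 of RD-ES, against at most 0.152 in SK-N-MC.

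The other RD-ES members were lower. LINC00944 stood at 2.66 to 3.77 FPKM, LINC00664 at 2.29 to 3.48, LINC01018 at 2.36 to 3.0, LINC02542 at 2.23 to 3.36 and LINC02550 at 1.32 to 2.6. None of these 5 passed 0.154 FPKM in SK-N-MC. LINC02041 stood at 2.88 to 5.67 FPKM, but it has 246 exonic bases and its values stand for 1.8 to 4.4 reads a library. LINC02301 stood at 2.33 and 2.38 FPKM in control and at 0.234 and 15.2 in eKD2, so its eKD2 libraries lay on both sides of the control level. Of all 11, 5 were at 0 in each of the 4 SK-N-MC libraries.

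Of the members on in SK-N-MC only, LINC01405 (chr12:111372394-111396897, plus strand), 13.15 kb from MYL2 (a myosin light chain), stood at 12.0, 4.45, 8.06 and 9.19 FPKM there and at 0 in RD-ES. MYL2 itself had a control mean of 0.0823 FPKM in SK-N-MC and 0 in RD-ES. LINC02485 (chr4:136034060-136044934, minus strand) stood at 9.04, 5.12, 8.73 and 11.8 FPKM, and at 0 in RD-ES except for 0.235 in eKD2 replicate 1. LINC02197 stood at 4.57 to 5.84 FPKM against 0.0794 to 0.207, but 96.5% of its exonic bases have another copy in the genome. LINC02356, divergent from PHETA1 at 0.14 kb, stood at 2.63, 1.37, 4.65 and 4.31 FPKM in SK-N-MC, and at 0 in RD-ES except for 4.4 in eKD2 replicate 1. It has 374 exonic bases, so its values rest on a short stretch.

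**Figure D2:**
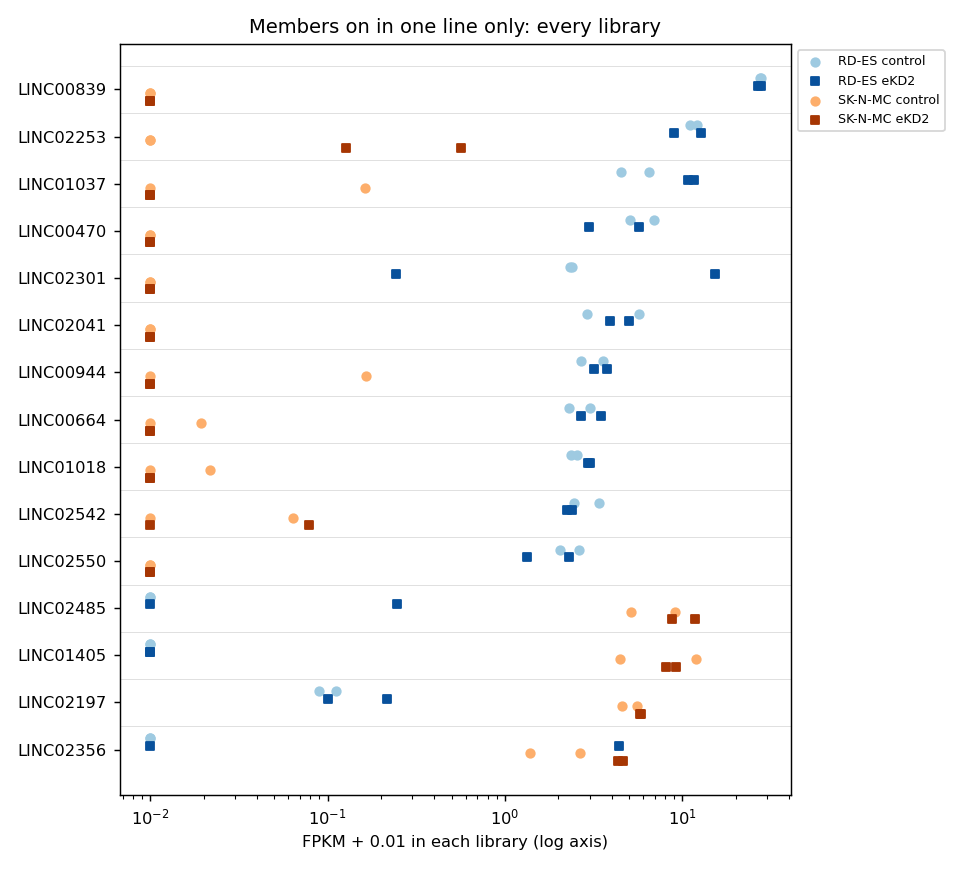
FPKM + 0.01 (log x axis) of the 15 members on in one line only, 1 row a member and 1 point a library, with circles for control and squares for eKD2. LINC02301 and LINC02356 are the rows with a wide gap between the RD-ES eKD2 libraries, 0.234 against 15.2 and 0 against 4.4 FPKM.

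The eKD2 libraries did not define this class, although they entered the mean of each member, so the test there is no independent support. In eKD2, 10 of the 11 RD-ES members and 3 of the 4 SK-N-MC members differed between lines at an adjusted p under 0.05 (limma). LINC00839 was lower in SK-N-MC by 4.82 on the log2 scale (adjusted p = 2.8e-06). By the same limits on eKD2 means, 10 of the 11 RD-ES members but 1 of the 4 SK-N-MC members, LINC01405, stayed on in one line only. The test exceptions were LINC02301 (adjusted p = 0.14) and LINC02356 (adjusted p = 0.2). Over all members 53 were higher and 27 lower in SK-N-MC (37.1% and 18.9%), against 28.2% and 28.1% of all genes tested. Antisense genes gave 42.5% and 13.8%.

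Neighbours were compared as a description. Across 137 members, the line difference in control correlated weakly with that of the nearest coding gene (r = 0.191, rho = 0.243), both taken from the same libraries. Signs were alike for 80 of the 137. For the 21 members divergent from a coding start within 1 kb, r was 0.481 and rho 0.443, with 14 of 21 of like sign. For the 38 members whose nearest coding start was over 100 kb away, r was 0.164 and rho 0.217, with 20 of 38 of like sign. LINC00664 was one member whose neighbour was ordered alike: ZNF429, a zinc finger gene 13.31 kb away, had a control mean of 4.55 FPKM in RD-ES against 0.193 in SK-N-MC. NSUN2, an RNA methyltransferase gene nearest to LINC01018, stood at 131 and 42.4 FPKM, so it was on in both lines.

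With eKD2, no member passed an adjusted p of 0.05 in either line (limma). In RD-ES 12 members were higher and 3 lower at an unadjusted p under 0.05 (8.39% and 2.1%), against 8.49% and 3.79% of all genes. In SK-N-MC 7 were higher and 2 lower (4.9% and 1.4%), against 5.71% and 7.29%. Adjusted calls over all genes were as rare as 0.264% higher and 0.0791% lower in RD-ES, and 0.152% and 0.171% in SK-N-MC. The median log2 change of the members was 0.0402 in RD-ES (0.0315 over all genes) and 0.06 in SK-N-MC (-0.00493 over all genes). The median spread between replicates (SD, log2) was 0.221 for members, 0.143 over all genes and 0.204 for antisense genes. Without RD-ES eKD2 replicate 1, the shallowest library, LINC02301 had a limma adjusted p of 0.0084 in RD-ES, but that omits its 0.234 FPKM and leaves 1 eKD2 library (15.2 FPKM), assumed to vary like the other groups. More members passed the unadjusted p in RD-ES without RD-ES eKD2 replicate 2, a fit that also leaves 1 eKD2 library. No share over all genes stands beside that count, so it is not read as a result about the members.

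Libraries that did not overlap were counted next, as a description. In RD-ES both eKD2 libraries lay above both controls for 28 members (19.6%, against 24.2% of all genes) and below for 18 (12.6%, against 15.1%). In SK-N-MC they lay above for 41 (28.7%, against 22.2%) and below for 15 (10.5%, against 25.1%). Antisense genes in SK-N-MC gave 29.8% and 12.7%, close to the members. Scaling each library to its median turned the split over all genes in RD-ES from 61.6% to 41.4% higher among those not overlapping, and that of the members from 60.9% to 52.9%.

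**Figure D3:**
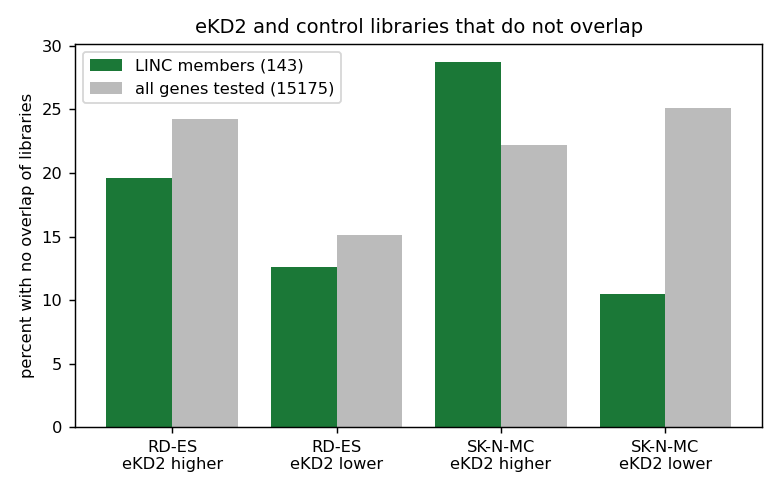
Percent of the 143 members and of the 15175 genes tested whose eKD2 libraries both lay above (higher) or both below (lower) both control libraries, by line. The widest gap between the bars is for SK-N-MC lower, 10.5% against 25.1%.

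In both lines 8 members were higher without overlap (5.59%, against 5.64% of all genes) and 3 lower (2.1%, against 4.03%). LINC00632, the CDR1as host, stood at 14.5 and 16.2 (control) against 21.1 and 17.7 FPKM (eKD2) in RD-ES, and at 15.4 and 13.1 against 21.2 and 25.3 in SK-N-MC. Its log2 change was 0.32 (SE 0.14, adjusted p = 0.45) in RD-ES and 0.67 (SE 0.14, adjusted p = 0.17) in SK-N-MC. LINC01238 stood at 3.22 and 3.35 against 5.38 and 4.2 FPKM in RD-ES, and at 8.1 and 8.31 against 11.1 and 11.3 in SK-N-MC. Its changes were alike in size, at 0.43 and 0.41 (adjusted p = 0.26 in both). LINC00662 stood at 9.94 and 7.64 against 13.7 and 15.8 FPKM in RD-ES, and at 45.5 and 43.5 against 47.4 and 46.3 in SK-N-MC. Its log2 change was 0.69 in RD-ES (adjusted p = 0.16) and 0.0748 in SK-N-MC (adjusted p = 0.88).

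The other 5 were LINC01703, LINC02035, LINC01012, LINC01301 and LINC00663. LINC00663 stood at 0.166 and 0.13 against 0.863 and 1.67 FPKM in RD-ES, and at 2.54 and 2.76 against 4.07 and 4.17 in SK-N-MC. LINC01301, divergent from RAB2A (a small GTPase gene), stood at 0.286 and 0.225 against 0.864 and 0.505 FPKM, and at 3.34 and 1.94 against 4.61 and 5.06. LINC01703 is given with the RD-ES changes. For LINC02035 the SK-N-MC change was 0.0562 and turned to -0.00436 under quantile normalization. The 3 lower members were LINC01355, LINC02037 and LINC01311. LINC02037 stood at 0.31 and 0.365 against 0.134 and 0.208 FPKM in RD-ES, and at 3.64 and 4.26 against 3.31 and 2.45 in SK-N-MC.

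**Figure D4:**
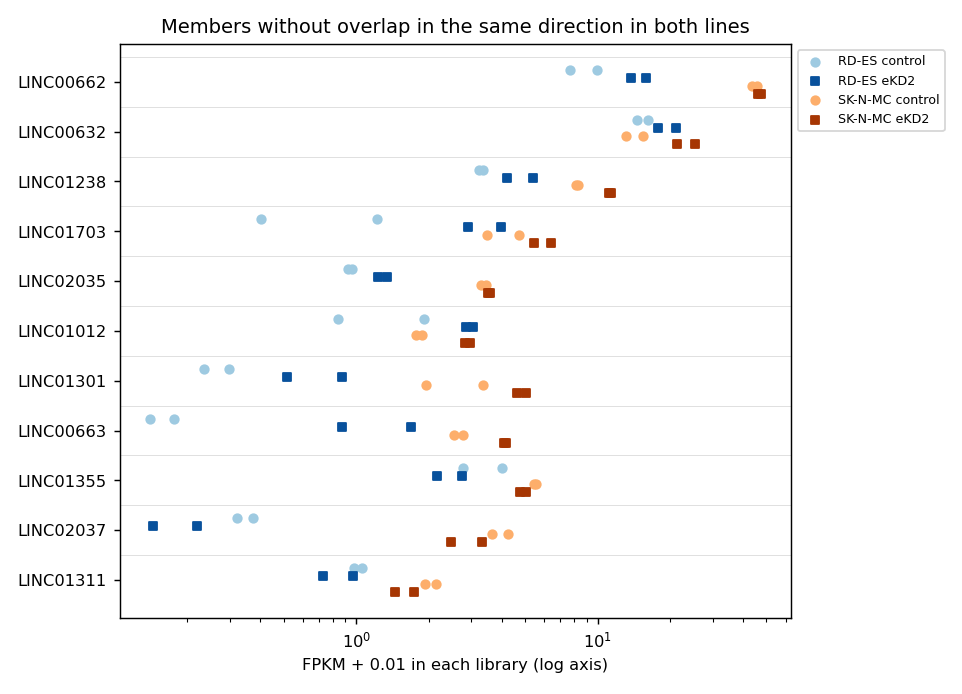
FPKM + 0.01 (log x axis) in every library of the 11 members whose eKD2 and control libraries did not overlap, in the same direction in both lines. Squares (eKD2) lie to the right of circles (control) of the same line for the upper 8 rows and to the left for the lower 3.

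The largest changes without overlap in RD-ES were towards higher levels in LINC01670, LINC01703, LINC00663, LINC01881, LINC01037 and LINC00173. LINC01670, placed on the unlocalized sequence GL000205.1, stood at 3.95 and 11.1 against 28.1 and 21.3 FPKM (log2 change 1.72, SE 0.55, adjusted p = 0.31). LINC01703 stood at 0.394 and 1.21 against 3.95 and 2.9 FPKM (1.32, SE 0.27, adjusted p = 0.18). LINC00173 stood at 3.29 and 2.11 against 7.85 and 4.05 FPKM. All annotated exonic bases of LINC01881 are shared with another gene, so its 1.86 and 2.73 against 5.48 and 5.11 FPKM are uncertain. LINC01686, named after its values were seen, had the smallest p of a member in RD-ES, with 1.7 and 1.6 against 4.19 and 3.52 FPKM (log2 change 0.87, adjusted p = 0.14).

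Towards lower levels, the largest in RD-ES were in LINC00106, LINC00461, LINC02104, LINC00659, LINC01355 and LINC01252. LINC00106 stood at 20.5 and 23.6 against 14.3 and 17.7 FPKM (log2 change -0.44, adjusted p = 0.28). LINC00461, the miR-9-2 host, stood at 2.02 and 1.99 against 1.29 and 1.23 FPKM in RD-ES (-0.41, adjusted p = 0.37), and its SK-N-MC libraries overlapped between 1.61 and 2.03.

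In SK-N-MC the largest towards higher levels were in LINC02193, LINC02356, LINC01301, LINC01341, LINC00659 and LINC00632. LINC02193 stood at 8.55 and 0.336 against 11.2 and 20.3 FPKM (log2 change 2.18, SE 1.61, adjusted p = 0.63), and 88.4% of its exonic bases have another copy. LINC00659 stood at 1.98 and 2.03 against 4.04 and 3.7 FPKM (0.69, SE 0.17, adjusted p = 0.21). LINC01341 stood at 1.52 and 0.748 against 2.0 and 2.85 FPKM. Towards lower levels they were in LINC02304, LINC00463, LINC00189, LINC02037, LINC01399 and LINC02361. LINC00463 stood at 7.33 and 7.36 against 4.51 and 4.61 FPKM (-0.59, SE 0.18, adjusted p = 0.27), and LINC02304 at 3.74 and 3.79 against 1.94 and 2.17. LINC00189 stood at 5.44 and 6.17 against 3.94 and 4.46 FPKM.

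The difference of the eKD2 change between the lines passed an adjusted p of 0.05 for 0 members (0.244% of all genes) and an unadjusted p under 0.05 for 10 (6.99%, against 13.5% of all genes; limma). Without RD-ES eKD2 replicate 1 the latter count was 20 (14.0%, against 12.9% of all genes), and without replicate 2 it was 17 (11.9%, against 17.6%). With no overlap in either line, 9 members lay in opposite directions (6.29%, against 10.2% of all genes).

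**Figure D5:**
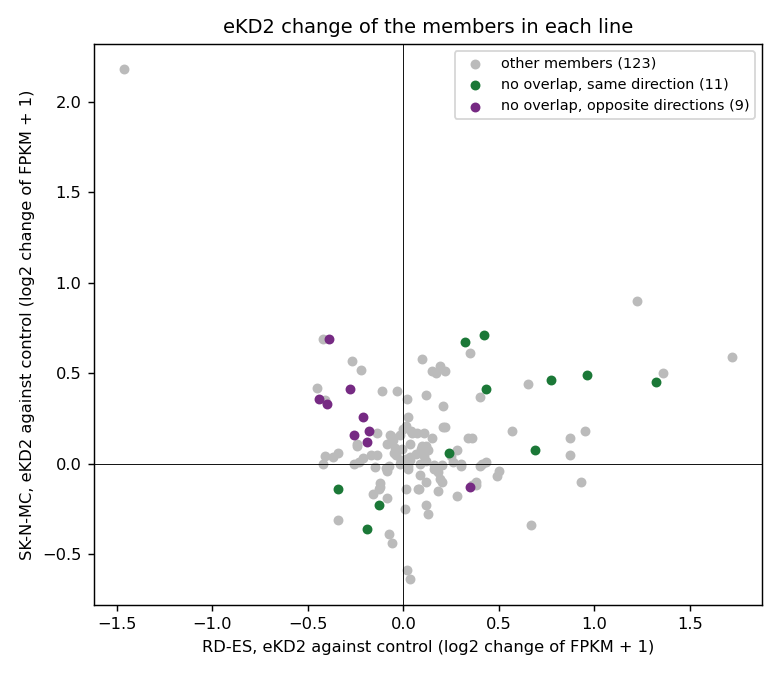
Log2 change of FPKM + 1 with eKD2 in RD-ES (x axis) and SK-N-MC (y axis), 1 point for each of the 143 members. The 11 members without overlap in the same direction lie in the upper right or lower left, and the 9 in opposite directions in the other corners. LINC02193 lies alone at the upper left, at -1.46 and 2.18.

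Spread between replicates set a limit on single members. For 12 members (8.39%, against 6.33% of all genes tested) 2 libraries of 1 group differed at least 5-fold with the higher at 1 FPKM or more. The eKD2 libraries of LINC02193 in RD-ES held 33.7 and 0.299 FPKM. Those of LINC01605 held 11.0 and 1.46 FPKM in RD-ES and 0.808 and 12.1 in SK-N-MC.

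Other long non-coding RNAs were taken as a comparison list of 27, of which 24 were tested. NEAT1, the scaffold of paraspeckles, rose in RD-ES from 46.9 and 45.3 to 114 and 98.4 FPKM (log2 change 1.18, adjusted p = 0.0072). ZFAS1, a snoRNA host, rose in SK-N-MC from 383 and 392 to 526 and 526 FPKM (0.44, adjusted p = 0.032). Of the 24 tested, these were the only 2 adjusted calls against control. Shares over all genes were 0.264% higher and 0.0791% lower for RD-ES, 0.152% and 0.171% for SK-N-MC. The change of ZFAS1 did not pass between the lines (SK-N-MC minus RD-ES 0.41, SE 0.0637, adjusted p = 0.11). At an unadjusted p under 0.05 (limma), 6 of the 24 were higher and 3 lower with eKD2 in RD-ES, against 8.49% and 3.79% of all genes. In SK-N-MC 4 of the 24 were higher and 1 lower, against 5.71% and 7.29% of all genes. The 4 included GAS5 (0.53, adjusted p = 0.069) and SNHG5 (0.42, adjusted p = 0.085). In SK-N-MC NEAT1 stood at 22.6 and 23.2 against 23.8 and 22.7 FPKM, and its change differed between the lines (SK-N-MC minus RD-ES -1.16, SE 0.12, adjusted p = 0.038).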

How the data were processed

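RNA of RD-ES and SK-N-MC, in duplicate control and eKD2 libraries of each, was analysed from the FPKM table deposited by the authors. The submitters' processing notes name STAR, Cuffnorm, DESeq2, FastQC and hg19, without versions. FPKM values were used as deposited, on a log2(FPKM + 1) scale for tests. Fold changes on this scale understate changes of low genes. TruSeq polyadenylated libraries of this kit do not mark strand. Reads from bases that a gene shares with an antisense partner therefore cannot be assigned to either. That limit also holds for the 275 antisense genes used for comparison.

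Genes whose mean reached 1 FPKM (15175 of 60332) were fitted with limma 3.58.1 in R 4.3.3 (trend, all 4 groups in 1 fit, Benjamini-Hochberg adjustment over all of them), checked on simulated data. No count test was run, since the table holds no counts. Depth came from steps of whole reads, with 199 bases taken off the exonic length. Between 73.6% and 86.9% of low values came within 0.05 of a whole read, and intervals on counts were not given. Replicates correlated at 0.937 to 0.945 across genes. Copies were exonic stretches of at least 200 bases matching elsewhere in GRCh37 at 98% or more (BLAST 2.17.0). Exonic lengths, shared and copied bases and neighbours came from the GENCODE annotation, which can differ from the gene models behind the FPKM values. The members and lists were chosen with earlier results of these data known. Members named were those on in one line only, the 8 highest, the 6 largest changes each way without overlap in each line, those without overlap in the same direction in both lines, members of the lists, and those nearest the limit. Alternatives covered the pseudocount, filter, scaling, model and single libraries.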

Additional observations from a re-analysis of the deposited data

Results flagged for a closer look

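For 9 members both eKD2 libraries lay above both controls in one line and below them in the other (6.29%, against 10.2% of all genes tested). The difference of the change (SK-N-MC minus RD-ES, log2) was tested in limma and passed an adjusted p of 0.05 for 0 of the 9 and an unadjusted p under 0.05 for 5. The 9 were picked from these same values, so those p-values restate the choice in part and are no independent support. The widest were LINC00659 at 1.09 (SE 0.23, adjusted p = 0.19) and LINC00106 at 0.80 (SE 0.18, adjusted p = 0.21). LINC02104 differed by 0.73 (adjusted p = 0.42) and LINC01252 by 0.70 (adjusted p = 0.43). LINC00969 differed by 0.47 (adjusted p = 0.25), LINC01515 by 0.42 (adjusted p = 0.29) and LINC00641 by 0.36 (adjusted p = 0.33). LINC02486 differed by 0.31 (adjusted p = 0.44). LINC00652 differed by -0.49 (adjusted p = 0.54), the one member higher in RD-ES and lower in SK-N-MC.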

How the results depend on the processing

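The 143 members became between 140 and 147 without single libraries. Members on in SK-N-MC only numbered 4, and 7 with off under 0.2 FPKM, 2 in the eKD2 means (of which 1, LINC01405, was among the 4, and the other was LINC00441) and 2 without short or copied members (the last chosen after seeing the data). They numbered 4 to 8 without single control libraries, with 8 without RD-ES control replicate 2, and those on in RD-ES only 9 to 14. These alternative counts have no share over all genes beside them. With eBayes without trend LINC01686 passed in RD-ES (limma adjusted p = 0.049), 1 member against 0. Without RD-ES eKD2 replicate 1, the shallowest library, which leaves 1 eKD2 library there, assumed to vary like the other groups, it was LINC02301 in RD-ES (log2 change 2.27, adjusted p = 0.0084) and for the difference between lines (adjusted p = 0.024). Those counts were 0 to 1 without single libraries, and at an unadjusted p under 0.05 the counts were 12 to 25 in RD-ES (15 with all; 25 without RD-ES eKD2 replicate 2), 5 to 13 in SK-N-MC (9 with all; 5 without SK-N-MC eKD2 replicate 2, and 16 with each line fitted alone) and 8 to 20 for the difference (10 with all; 20 and 17 without RD-ES eKD2 replicates 1 and 2). The cause was not tested, and the counts within a line have no share over all genes beside them. Same-numbered libraries did not pair (r = 0.056 and 0.0274). With the replicate block 15, 10 and 13 members passed the unadjusted p (limma). The last is 9.09%, against 14.6% of all genes, and the counts within a line again have no such share. The line difference in eKD2 passed an adjusted p of 0.05 for 60 members with the block and 80 without it. Over all genes tested it passed for 7261 and 8545. Over all genes, adjusted calls (52 in RD-ES, 49 in SK-N-MC, 37 for the difference) were 1 and 13 with each line fitted alone, 11, 5 and 7 with the block, 79, 118 and 66 without the filter, and 27 to 71, 12 to 76 and 54 to 81 without single libraries. The LOXHD1 change in RD-ES had an adjusted p of 0.059 with the line fitted alone. Of 600 recomputed changes of 28 named members, 1 reversed: LINC02035 in SK-N-MC, to -0.00436 under quantile normalization. Depth limits low members, where 1 read per kb is worth 0.0334 to 0.134 FPKM.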
